A study of Nothobranchius furzeri with 19 samples.

Results

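The comparison of female with male trunks at 3 days post hatching (dph) rests on 6 of the 19 libraries of the series, 3 per sex, taken by their labelled sex, age and tissue. All 6 were made from trunks of larvae of the inbred, short-lived turquoise killifish (*Nothobranchius furzeri*) strain GRZ. No allele or treatment is named in the labels, and sex is the only labelled trait in which the groups differ. The other libraries are whole embryos at 10 days post fertilization, trunks at hatching (0 dph, 2 female and 3 male libraries) and 1 adult ovary and 1 adult testis at 3 months. The labels do not say whether a library is 1 larva or a pool, nor whether replicates came from separate clutches, so p-values measure the spread between these libraries only.

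In the turquoise killifish, males are XY and females XX. The trunk holds the young gonad among skin, muscle, gut, liver, blood and kidney, and the gonad is a small share of its tissue. In fish that develop directly as females, germ cells enter meiosis and become oocytes early, while testicular germ cells enter meiosis much later. Oocytes store large amounts of RNA for the embryo, including transcripts for RNA-binding proteins, the egg coat and germ plasm. In such bulk RNA, a gene can differ because cells of a type are more numerous or because each cell holds more of its RNA, and these cannot be told apart.

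Total counts per library lay between 25600939 and 31493908, and between 23599 and 24165 genes had a count. Replicates differed by more than sampling noise (chi-square per degree of freedom 22.2 to 24.7 between female and 36.9 to 59.2 between male libraries). Of 21772 genes tested with DESeq2, 4109 (18.9%) differed at an adjusted p under 0.05, 2978 higher in females (13.7%) and 1131 higher in males (5.19%). edgeR's quasi-likelihood test called 3204 (15.6% of 20557) and 709 (3.45%). The direction depended on size: 392 genes were at least 8-fold higher in females and 12 at least 8-fold higher in males (1.8% and 0.0551% of tested genes), whereas under 1.5-fold the counts were 764 and 452. Without female replicate 1 there were 2707 calls, and without male replicate 2 there were 4194. Male-higher calls numbered 474, 619 and 554 without female replicate 1, 2 and 3. Without male replicate 1, 2 and 3 they numbered 692, 1394 and 758. The 3 kinds of difference, on/off genes, abundant genes and small shifts, are therefore described one after the other. Fold changes are female over male. The libraries of the sexes did not overlap in 37.8% of all tested genes and in 96.4% of the called genes.

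**Figure D1:**
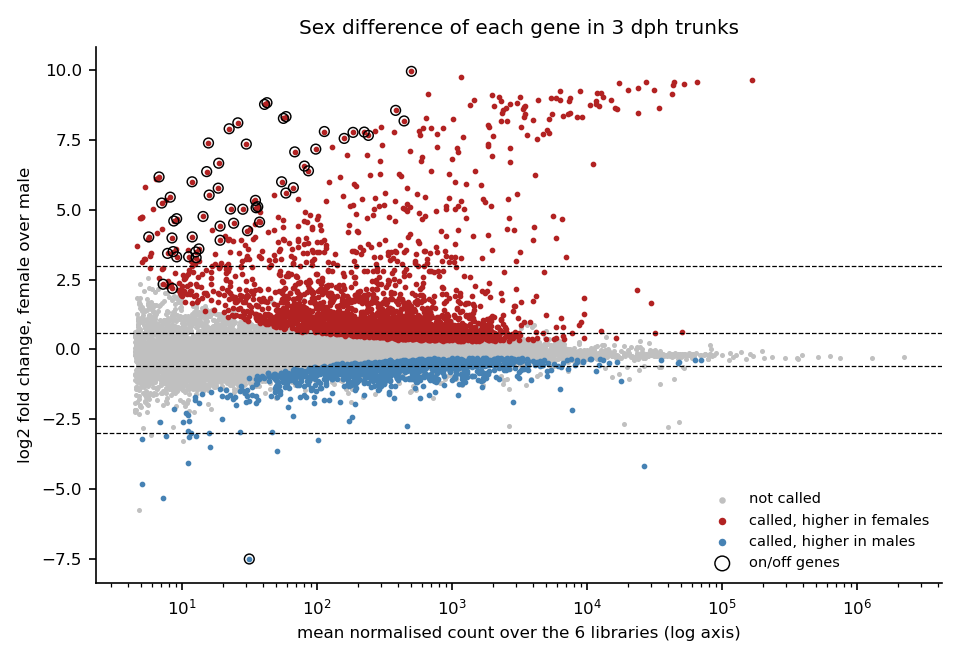
Each point is 1 of the 21772 tested genes, with the mean normalised count over the 6 libraries (log axis) against the log2 fold change of females over males. Red and blue points were called higher in females (2978) and in males (1131), circles mark the 57 on/off genes, and dashed lines mark 1.5-fold and 8-fold. Differences of 8-fold and more lie almost all on the female side (392 genes against 12).

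A gene was counted as on/off when all 3 libraries of one sex held at most 3 counts and all 3 of the other at least 10. This applied to 57 genes, 56 on in females and 1 on in males. All 57 passed DESeq2 (background 18.9%), and edgeR called each of the 54 female genes that it tested. Since the limits already require the sexes to lie apart, these calls add nothing to the count. The 1 male gene was si:dkey-11o15.10 (Nfu_g_1_015428), a symbol with no known role, with 0, 1 and 0 counts in the female libraries and 47, 77 and 62 in the male libraries. The libraries of the sexes were far apart, and the male to female ratio of counts was 195 (95% exact interval from 34.5 to 7738, counting error only). At 0 dph it was again seen in males alone, with 0 and 0 counts in the female and 45, 13 and 21 in the male libraries, where DESeq2 gave an adjusted p of 5.58e-04. In the adult gonads it had 0 and 21 counts in ovary and testis.

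Of the 56 genes on in females, 1 has a symbol in the table used here. PGBD4 (Nfu_g_1_001172), a gene derived from a piggyBac transposable element, had 22, 23 and 26 counts in the female libraries and 2, 1 and 3 in the male libraries. Its female libraries lay close together near the lower limit of 10, and the female to male ratio of counts was 11.3 (95% exact interval from 4.94 to 31.8). The gene with the highest count, Nfu_g_1_009441, had 895, 1044 and 1135 counts in the female libraries and 1, 2 and 0 in the male libraries. In this gene the female libraries stood far above all male libraries, with a ratio of counts of 978 (95% exact interval from 334 to 4745). It had 3604 and 13 counts in ovary and testis.

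Counts of the 56 genes in females varied widely: in 24 all female libraries were under 50 counts, and in 14 all were at 100 or more. No male count was found in 6 of them, and set against 3 counts over the male group these were at least 13.4-fold to at least 84.3-fold higher in females. In the adult gonads, 47 of the 56 (83.9%) had a higher CPM (count scaled to the library total) in the ovary than in the testis, against 39.5% of all tested genes. The remaining 9 were higher in the testis, and 7 had under 20 counts in the ovary. Together the 56 genes took between 0.0239% and 0.0263% of a female library. The limits decide the membership of many: a further 80 genes had at least 10 counts in every female library with a highest male count of 4 to 6, and the mirror image held for 8 genes. Without female replicate 3 or male replicate 3 there were 4 on/off genes in males, without male replicate 1 or 2 there were 3, and without female replicate 2 there were 2. Fewer libraries make the limits easier to meet, so these counts could only stay or rise.

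Most of the largest differences lay outside this class, in genes with more than 3 male counts. Of the genes called, 133 were at least 64-fold higher in females, and 1, the on/off gene si:dkey-11o15.10, was so in males. The 133 genes took 5.39%, 6.85% and 7.92% of the counts of female replicates 1, 2 and 3. In males they took 0.0128%, 0.0153% and 0.0157%. The female libraries thus differed among themselves, and every one of them was far above every male library. All 133 had a higher CPM in the ovary than in the testis. Over the 24 of them with a mean of at least 10000 normalised counts, the male count of a gene was between 0.121% and 0.971% of the female count (median 0.169%). Over the 56 with a mean of 1000 to 10000 the range was 0.112% to 1.28% (median 0.29%). The limit of 64-fold, by which these genes were chosen, caps the male share. In adults the testis held a median of 0.0667% and 0.0541% of the ovary's raw counts in the same 2 classes. These 2 shares are not scaled to the library totals. The testis library was smaller than the ovary library, so scaled shares would be higher. The source of the counts in male trunks was not tested.

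**Figure D2:**
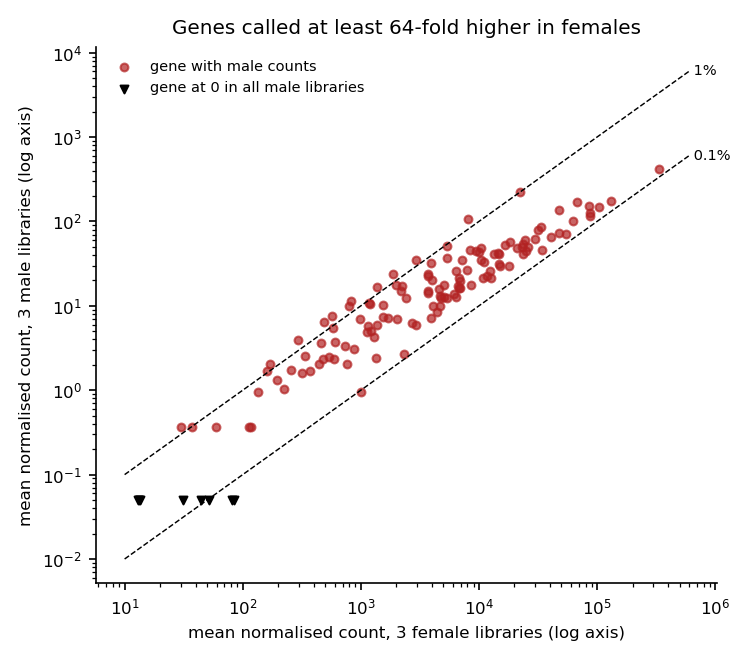
Each point is 1 of the 133 genes called at least 64-fold higher in females, with the mean normalised count of the 3 female libraries against that of the 3 male libraries (both log axes). Triangles are genes at 0 in all male libraries, drawn at an arbitrary low value, and dashed lines mark male levels of 0.1% and 1% of the female level. From 1000 female counts on, nearly all genes lie between the lines, and the 64-fold limit of the choice sets the upper edge.

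Among genes with a symbol, the largest was krt5 (Nfu_g_1_000844), annotated as a keratin of the basal epidermis, with 26901, 38510 and 40580 counts in the female libraries and 47, 50 and 39 in the male libraries. This amounted to 34398 ± 7662 normalised counts (SD, n = 3) in females and 46.2 ± 4.32 in males, a log2 fold change of 9.54 ± 0.22 (SE, edgeR adjusted p 1.33e-07). The sexes did not overlap, and it had 85823 and 70 counts in ovary and testis. A second gene with the same symbol, Nfu_g_1_001437, stood at 325252 ± 52931 in females and 407232 ± 76958 in males (normalised counts, SD, n = 3). There the sexes overlapped, and the adjusted p was 0.229 by DESeq2. ace, the angiotensin-converting enzyme (Nfu_g_1_017409), had 8047, 11179 and 11757 counts in the female libraries and 38, 53 and 38 in the male libraries. It differed by 7.85 ± 0.22 (SE) in log2 fold change, with an adjusted p of 1.23e-274 by DESeq2, and the sexes were far apart.

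Several of the other large female genes are known from the egg. lsm14b (Nfu_g_1_001661), an RNA-binding protein of oocyte ribonucleoprotein granules in vertebrates, had 636, 615 and 595 counts in the female libraries and 4, 4 and 3 in the male libraries, and differed by 7.33 ± 0.47 (SE) in log2 fold change, with an adjusted p of 1.22e-53 by DESeq2. Male libraries were just above the limit of 3 counts. pabpc1l (Nfu_g_1_001543), the embryonic poly(A)-binding protein of oocytes, had 2948, 3684 and 3867 counts in the female libraries and 77, 72 and 106 in the male libraries, and differed by 5.28 ± 0.22 (SE) in log2 fold change, with an adjusted p of 2.97e-120 by DESeq2. taf4b (Nfu_g_1_000882), a gonadal subunit of the general transcription factor TFIID, had 304, 336 and 356 counts in the female libraries and 11, 18 and 23 in the male libraries, and differed by 4.19 ± 0.29 (SE) in log2 fold change, with an adjusted p of 5.14e-45 by DESeq2. In all 3 genes the lowest female library was above the highest male library. CR925772.2, zgc:193690 and si:ch1073-219n12.1, symbols without a known role, had log2 fold changes of 5.91 ± 0.23, 4.03 ± 0.23 and 3.85 ± 0.33 (SE), all called by both tools. In the adult ovary and testis the counts of zgc:193690 were 3411 and 3548, those of CR925772.2 12491 and 13 and those of lsm14b 4577 and 1. These counts are not scaled, and the testis library was the smaller one. Scaled to the library totals, zgc:193690 was thus higher in the testis.

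On the male side, 12 genes were called at least 8-fold higher. edgeR called 4 of them, and its count filter left most of the others untested. DESeq2 kept 4 of the 12 in each of the 6 fits that left out 1 library. The highest count among the 12 was that of Nfu_g_1_026575, which has no symbol and was singled out after its values were seen. edgeR tested this gene and did not call it (adjusted p 0.0768). It had 4932, 1606 and 1945 counts in the female libraries and 2152, 9232 and 125411 in the male libraries. Male replicate 3 alone was high and the sexes overlapped, so the log2 fold change of -4.16 ± 1.41 (SE, with an adjusted p by DESeq2 of 0.0211) rested on that library, and without it the adjusted p was 0.585. Without female replicate 2 or 3 it was 0.123 or 0.137. It took most of the counts in this class: the other 11 genes held between 0.00118% and 0.00202% of a male library. si:ch211-233b23.4 (Nfu_g_1_014802) had 22, 20 and 18 counts in the female libraries and 160, 202 and 178 in the male libraries, and differed by -3.24 ± 0.28 (SE) in log2 fold change, with an adjusted p of 1.35e-29 by DESeq2, with no overlap.

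Of the male-higher genes between 4-fold and 8-fold, si:ch211-208f21.5 (Nfu_g_1_005006) had 12, 15 and 6 counts in the female libraries and 71, 86 and 83 in the male libraries. gsg1l (Nfu_g_1_004887), an auxiliary subunit of AMPA-type glutamate receptors in mammals, had 50, 51 and 55 counts in the female libraries and 278, 333 and 265 in the male libraries, and differed by -2.55 ± 0.20 (SE) in log2 fold change, with an adjusted p of 8.90e-34 by DESeq2. Both were higher in males in every library and also higher in males at 0 dph (DESeq2 adjusted p 6.32e-04 and 0.00370). si:dkey-11o1.3 (Nfu_g_1_001097) had 84, 42 and 51 counts in the female libraries and 300, 441 and 183 in the male libraries, and differed by -2.41 ± 0.33 (SE) in log2 fold change, with an adjusted p of 1.95e-11 by DESeq2. sult2st3 (Nfu_g_1_001714), a cytosolic sulfotransferase, had 1, 2 and 8 counts in the female libraries and 14, 15 and 24 in the male libraries. Its counts were low and its call (log2 fold change -2.33 ± 0.81, SE, DESeq2 adjusted p 0.0251) was lost when female replicate 1 or 2 or male replicate 1 or 3 was left out, with adjusted p up to 0.213.

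**Figure D3:**
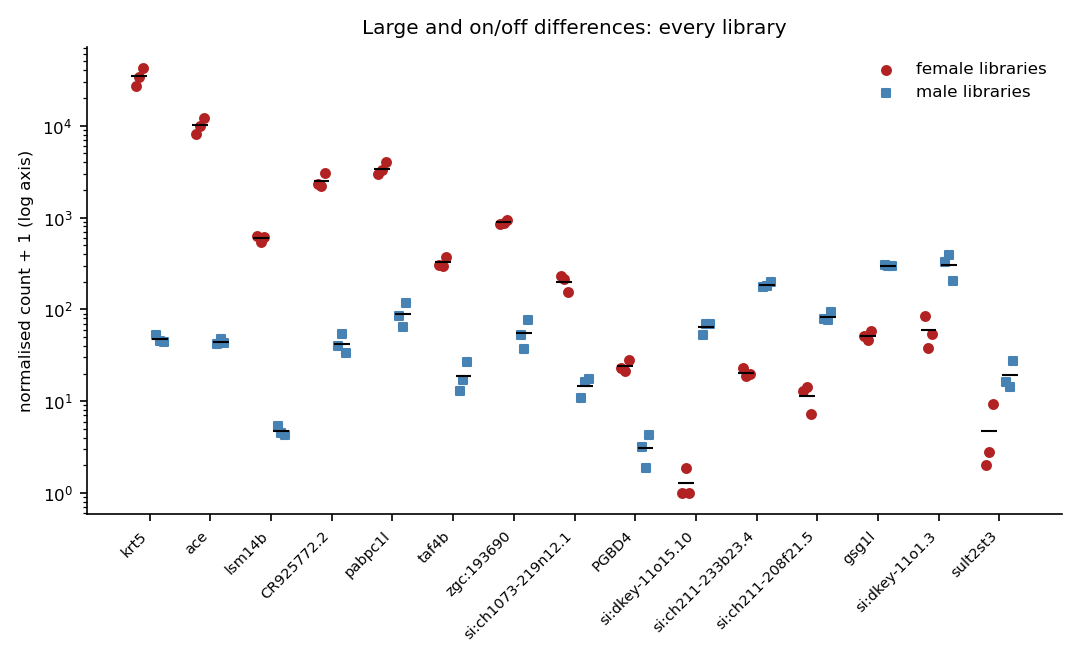
Normalised count plus 1 (log axis) of every 3 dph library for the largest named differences and the 2 named on/off genes, with females as red circles, males as blue squares and the group mean as a black line. krt5, ace and lsm14b show the widest gaps, and sult2st3 the narrowest.

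The list for meiosis and the germ line held 11 genes, of which 10 were tested and 8 were higher in females and 0 in males (background 13.7% and 5.19% of all tested genes, and 11% and 5.91% of the 2438 with a symbol). The median log2 fold change of the list was 3.30, against -0.08 over all tested genes. This list and those below were chosen with earlier results of these data known, so their counts are a description only. rec8 (Nfu_g_1_001081), the meiotic subunit of cohesin, had 247, 235 and 106 counts in the female libraries and 20, 17 and 12 in the male libraries, and differed by 3.50 ± 0.39 (SE) in log2 fold change, with an adjusted p of 5.57e-18 by DESeq2. Female replicate 3 was lowest, and still above all males. rad21l1 (Nfu_g_1_001403), another meiotic cohesin subunit, had a log2 fold change of 2.18 ± 0.30 (SE, with an adjusted p by DESeq2 of 1.42e-11). brdt (Nfu_g_1_000900), a bromodomain protein known from mouse spermatocytes, had 608, 713 and 703 counts in the female libraries and 56, 77 and 68 in the male libraries, and differed by 3.27 ± 0.19 (SE) in log2 fold change, with an adjusted p of 2.20e-66 by DESeq2. It was higher in females here, although in the adult gonads it had 2034 and 8352 counts in ovary and testis.

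tdrd6 (Nfu_g_1_000089), a Tudor protein of germ granules, had 1514, 1812 and 1776 counts in females and 136, 120 and 216 in males, a log2 fold change of 3.33 ± 0.26 (SE, with an adjusted p by DESeq2 of 2.68e-36). mei4 (Nfu_g_1_000109), needed in mice for meiotic DNA breaks, had 25, 141 and 20 counts in females and 1, 8 and 9 in males (log2 fold change 3.23 ± 0.79, SE, DESeq2 adjusted p 0.000563). Female replicate 2 was far above the others, and without it the adjusted p was 0.111, or 0.0737 without male replicate 2. sybu (Nfu_g_1_016781), the vegetal-pole syntabulin of zebrafish oocytes, had 1586, 1725 and 1717 counts in the female libraries and 88, 201 and 140 in the male libraries, and differed by 3.51 ± 0.21 (SE) in log2 fold change, with an adjusted p of 6.34e-58 by DESeq2. spo11 (Nfu_g_1_001497), the enzyme that cuts DNA in meiosis, had 3, 4 and 2 counts in the female libraries and 0, 2 and 5 in the male libraries, too few to be tested at this depth. Summed over the list, normalised counts were between 7460 and 9065 in females and between 515 and 744 in males.

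Of 16 tested genes of sperm and motile cilia, 0 were called in either direction by DESeq2 (18.9% of all tested genes), with a median log2 fold change of -0.09 (2 at an unadjusted p under 0.05, and edgeR called 1, higher in females). Genes of DNA replication and repair were higher in females in 8 of 17 and in males in 0 (13.7% and 5.19% of all tested genes), with a median of 0.53. rad54l (Nfu_g_1_000802), a motor of homologous recombination, had 647, 673 and 630 counts in the female libraries and 152, 214 and 153 in the male libraries, and differed by 1.85 ± 0.15 (SE) in log2 fold change, with an adjusted p of 1.75e-32 by DESeq2. rrm1 (Nfu_g_1_000449), the large subunit of ribonucleotide reductase, had 1984, 2098 and 1959 counts in the female libraries and 948, 1080 and 624 in the male libraries, and differed by 1.13 ± 0.17 (SE) in log2 fold change, with an adjusted p of 1.40e-09 by DESeq2. The single-strand binding protein rpa1 (Nfu_g_1_000665) changed less, by 0.81 ± 0.15 (SE, with an adjusted p by DESeq2 of 5.52e-07). Of 18 genes of mitosis, 4 were higher in females and 0 in males, with a median of 0.19, against the same 13.7% and 5.19%. CCNJ (Nfu_g_1_001361), a cyclin, had 217, 238 and 308 counts in the female libraries and 36, 25 and 28 in the male libraries, and differed by 3.03 ± 0.30 (SE) in log2 fold change, with an adjusted p of 1.71e-22 by DESeq2. KIF20B (Nfu_g_1_000797), a kinesin of cell division, changed by 0.83 ± 0.12 (SE, with an adjusted p by DESeq2 of 3.86e-11).

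In the TGF-beta and BMP signalling list, 1 of 12 tested genes was higher in females and 1 in males, with a median of -0.28. These counts lie near the shares over all tested genes, 13.7% and 5.19%. bmpr2b (Nfu_g_1_001410), a type II BMP receptor, had 213, 212 and 184 counts in the female libraries and 83, 85 and 94 in the male libraries, and differed by 1.14 ± 0.21 (SE) in log2 fold change, with an adjusted p of 1.79e-06 by DESeq2. id1 (Nfu_g_1_021185), a BMP target that inhibits basic helix-loop-helix factors, had 913, 895 and 1018 counts in the female libraries and 1185, 1313 and 1151 in the male libraries, and differed by -0.43 ± 0.15 (SE) in log2 fold change, with an adjusted p of 0.0265 by DESeq2. All 3 male libraries were above all 3 female ones. The call was lost when female replicate 1 or 2 or male replicate 1 or 3 was left out, with adjusted p between 0.0946 and 0.145. smad9 (Nfu_g_1_001408), a BMP-activated signal transducer, had 12, 14 and 13 counts in the female libraries and 18, 38 and 23 in the male libraries, and its log2 fold change of -1.06 ± 0.48 did not pass (SE, with an adjusted p by DESeq2 of 0.106).

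The lipid carrier pctp (Nfu_g_1_016576) had 39, 50 and 39 counts in the female libraries and 67, 88 and 97 in the male libraries, and differed by -1.06 ± 0.29 (SE) in log2 fold change, with an adjusted p of 0.00298 by DESeq2, lower in every female library than in any male library. Without male replicate 3 its adjusted p was 0.0508. RNF19A (Nfu_g_1_017372), a ubiquitin ligase, had 383, 362 and 351 counts in the female libraries and 109, 118 and 74 in the male libraries, and differed by 1.81 ± 0.20 (SE) in log2 fold change, with an adjusted p of 1.12e-17 by DESeq2. Of 8 genes of steroid and sterol metabolism, 2 were higher in males and 0 in females (sult2st3 and POR, list median -0.22), against 5.19% and 13.7% of all tested genes, and neither held in all 6 fits without 1 library. Both genes named cyp11c1, the 11-beta-hydroxylase of androgen and glucocorticoid synthesis, stayed short of the threshold: Nfu_g_1_001333 had 132, 115 and 120 counts in the female libraries and 48, 240 and 155 in the male libraries, with a log2 fold change of -0.29 ± 0.41 (SE, with an adjusted p by DESeq2 of 0.678), and without male replicate 1, which was lowest, the adjusted p was 0.0349.

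The 200 genes with the highest mean normalised counts (means from 16647 upwards, not corrected for gene length) took up to 54.7% of a female library and between 55.5% and 58.3% of a male library. Of them 18 were called higher in females (9%) and 8 higher in males (4%), against 13.7% and 5.19% of all tested genes. The mean runs over both sexes, so a gene high in 1 sex alone can enter the class. These counts are thus a description only. The median log2 fold change of the 200 genes was -0.20, and 171 of 200 leaned towards males. Over all tested genes the median was -0.08, and 12334 of 21772 leaned towards males. The female calls fell apart in size. Among them were 14 genes with log2 fold changes from 8.44 to 9.63, of which krt5 alone has a symbol. Their counts ran from 26901 to 451142 in females and from 38 to 468 in males, so they entered the 200 through the female libraries. In all 14 female replicate 1 was the lowest and female replicate 3 the highest female library after normalisation. Nfu_g_1_019088 had the highest, with 230609, 346557 and 451142 counts in the female libraries and 381, 468 and 396 in the male libraries. The remaining 4 female calls had log2 fold changes from 0.58 to 2.12.

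The 8 abundant male-higher genes differed far less. Without Nfu_g_1_026575 they had log2 fold changes between -1.11 and -0.38. Nfu_g_1_019261 had 63729, 63052 and 61568 counts in the female libraries and 83442, 79509 and 69481 in the male libraries, and differed by -0.38 ± 0.14 (SE) in log2 fold change, with an adjusted p of 0.0415 by DESeq2. The sexes did not overlap, but edgeR did not call it (adjusted p 0.115), nor did DESeq2 when any female library or male replicate 1 or 3 was left out (adjusted p up to 0.198). edgeR called 1 of the 8. The 8 calls became 5, 4 and 4 without female replicate 1, 2 and 3, and 15 without male replicate 2. The haemoglobin gene hbbe2 (Nfu_g_1_023228) had 51771, 36338 and 35099 counts in females and 38127, 109033 and 47852 in males, with male replicate 2 far above the rest (log2 fold change -0.67 ± 0.29, SE, DESeq2 adjusted p 0.0955). Of 9 ribosomal protein genes, DESeq2 and edgeR called 0 (0 at an unadjusted p under 0.05), with log2 fold changes between -0.23 and 0.03 (median -0.18).

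Small shifts, called genes under 1.5-fold, numbered 764 in females and 452 in males (3.51% and 2.08% of tested genes). Tested genes were ranked by mean count and split into 10 classes of equal size. Male-higher calls of any size were most frequent in class 10, the highest (171 of 2178), and female-higher calls in class 7 (463 of 2177), with means of 362 to 552. The smallest log2 fold change called was 1.39 in class 1, the lowest, and 0.29 in class 10. tspan7 (Nfu_g_1_004561), a tetraspanin membrane protein, had 3032, 3364 and 3018 counts in the female libraries and 1985, 2277 and 1809 in the male libraries, and differed by 0.57 ± 0.11 (SE) in log2 fold change, with an adjusted p of 1.52e-06 by DESeq2. picalm (Nfu_g_1_000510), a clathrin assembly protein, had 2929, 3269 and 2846 counts in the female libraries and 1900, 2290 and 1943 in the male libraries, and differed by 0.49 ± 0.10 (SE) in log2 fold change, with an adjusted p of 2.01e-05 by DESeq2. In both genes every female library was above every male library after normalisation. clptm1 and vars, the latter the valyl-tRNA synthetase, changed by 0.55 ± 0.13 and 0.58 ± 0.14 (SE, both called by edgeR as well).

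Among male-higher shifts, camk2g1 (Nfu_g_1_022991), a calcium- and calmodulin-dependent kinase, had 1385, 1524 and 1206 counts in the female libraries and 1630, 2109 and 1579 in the male libraries, and differed by -0.44 ± 0.11 (SE) in log2 fold change, with an adjusted p of 0.00123 by DESeq2. ash1l (Nfu_g_1_001112), a histone methyltransferase, had 879, 1062 and 691 counts in the female libraries and 1245, 1369 and 1093 in the male libraries, and differed by -0.57 ± 0.15 (SE) in log2 fold change, with an adjusted p of 0.00141 by DESeq2. cilp (Nfu_g_1_001145), a cartilage matrix protein, had 1276, 1303 and 1160 counts in the female libraries and 1538, 1960 and 1368 in the male libraries, and differed by -0.44 ± 0.12 (SE) in log2 fold change, with an adjusted p of 0.00304 by DESeq2, and apoa4 (Nfu_g_1_001147), an intestinal apolipoprotein, changed by -0.50 ± 0.14 (SE, with an adjusted p by DESeq2 of 0.00478). Unscaled counts in ovary and testis were 25 and 2895 for cilp and 11 and 5 for apoa4. They were 466 and 292 for camk2g1 and 406 and 181 for ash1l. These genes kept their calls in each of the 6 fits without 1 library. The class as a whole did not: of 764 female-higher shifts 214 and of 452 male-higher shifts 42 were called in all 6 such fits, compared with 368 of the 392 genes at least 8-fold higher in females (93.9%). A fit with fewer libraries has less power for small differences. The gap to the 8-fold class was thus partly set by the limits of the classes. Without female replicate 1, 2 and 3 the female-higher shifts numbered 253, 412 and 349, and without male replicate 1, 2 and 3, 506, 555 and 445. For male-higher shifts these counts were 92, 124, 133, 206, 532 and 226 in the same order. edgeR called 98.7% of the female-higher and 60.6% of the male-higher shifts. With scaling by library totals DESeq2 still called 89.3% and 33.6%, and camk2g1 was lost (adjusted p 0.0651). With replicate number as a block, camk2g1 and cilp did not pass (DESeq2 adjusted p 0.0526 and 0.0612).

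**Figure D4:**
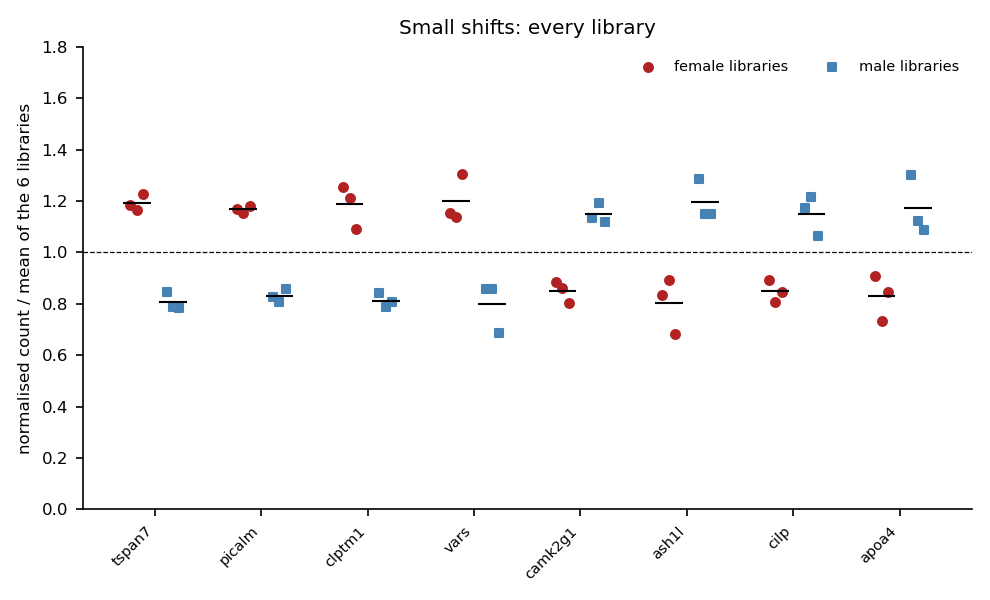
Normalised count of every 3 dph library divided by the mean of the 6 libraries, for the 8 named small shifts, with females as red circles, males as blue squares and the group mean as a black line. In all 8 genes the sexes do not overlap, and the group means differ by under 1.5-fold. The same lack of overlap holds for 37.8% of all tested genes. It holds for 99.7% of female-higher and 96.9% of male-higher small shifts, from which these 8 were chosen by adjusted p.

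Of 19 tested gut genes, 9 were higher in males and 1 in females (background 5.19% and 13.7%), with a median of -0.50. The list was mixed, and 8 of the 19 leaned towards females. The female call was MEP1B (Nfu_g_1_001060, log2 fold change 0.99 ± 0.34, SE, DESeq2 adjusted p 0.0246). edgeR did not call it (adjusted p 0.0767), and the call was lost without any 1 of the female libraries. A gene named chia.3 (Nfu_g_1_001838) also leaned towards females (0.50, DESeq2 adjusted p 0.0925). cdh17 (Nfu_g_1_001201), the intestinal cadherin, had 241, 169 and 155 counts in the female libraries and 310, 499 and 406 in the male libraries, and differed by -1.16 ± 0.23 (SE) in log2 fold change, with an adjusted p of 9.49e-06 by DESeq2. The chitinase chia.6 (Nfu_g_1_001997) had 952, 1119 and 919 counts in the female libraries and 2530, 1386 and 1419 in the male libraries, and differed by -0.94 ± 0.26 (SE) in log2 fold change, with an adjusted p of 0.00347 by DESeq2, and male replicate 1 stood well above the others. Both kept their calls in all 6 fits without 1 library. Of the 10 gut calls, 3 did so. Male-higher gut genes numbered 4 without female replicate 1, 5 without female replicate 2 or male replicate 1 or 3, and 5 with edgeR. The summed gut counts were between 11514 and 13759 in females and between 13826 and 23583 in males. In the skin list, 2 of 13 genes were higher in females, krt5 among them, and 1 in males (median -0.18), near the 13.7% and 5.19% of all tested genes. krt18 (Nfu_g_1_001656), a keratin of simple epithelia, had 3478, 3639 and 3446 counts in the female libraries and 10173, 5106 and 10799 in the male libraries, and differed by -1.42 ± 0.29 (SE) in log2 fold change, with an adjusted p of 2.36e-05 by DESeq2. Male replicate 2 was nearest to the females, and without male replicate 1 the adjusted p was 0.0587. A second gene named krt18, Nfu_g_1_001524, was not called (log2 fold change -0.18, DESeq2 adjusted p 0.319).

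The lists for other tissues of the trunk are read against 13.7% of all tested genes called higher in females and 5.19% in males. Of 28 striated muscle genes 1 was higher in females and 2 in males (median -0.22), of 45 collagen and matrix genes 2 and 4 (median -0.24), and of 16 immune genes 1 and 0 (median -0.25). Of 17 liver genes (median -0.08) and 28 neuron genes (median -0.47), DESeq2 and edgeR called 0, with 1 of each list at an unadjusted p under 0.05. The immune gene, skap1 (Nfu_g_1_000786), an adaptor of T cells, had 98, 159 and 134 counts in the female libraries and 25, 21 and 23 in the male libraries, and differed by 2.42 ± 0.31 (SE) in log2 fold change, with an adjusted p of 6.16e-13 by DESeq2. None of the 3 muscle calls and 1 of the 6 matrix calls, cilp, held in all 6 fits without 1 library. In the red blood cell list 1 of 9 genes was higher in males, rh50, a membrane protein of red cells, and 0 in females (median -0.67). rh50 had 746, 645 and 748 counts in the female libraries and 1544, 960 and 1556 in the male libraries. Among males it was lowest in replicate 2, where the haemoglobin gene hbbe2 was highest. The median of neurons was -0.16 without male replicate 2 and -0.81 without female replicate 2, and that of red blood cell genes -0.26 without male replicate 2. Of the markers of the eye, 8 of 15 retina and 5 of 5 lens genes had at most 10 counts in every library, and DESeq2 and edgeR called 0 of the 8 retina and 1 lens genes tested (0 at an unadjusted p under 0.05). Muscle, gut, liver and skin lists, tissues of a trunk, reached 5978, 3534, 77329 and 469499 counts in their highest gene.

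**Figure D5:**
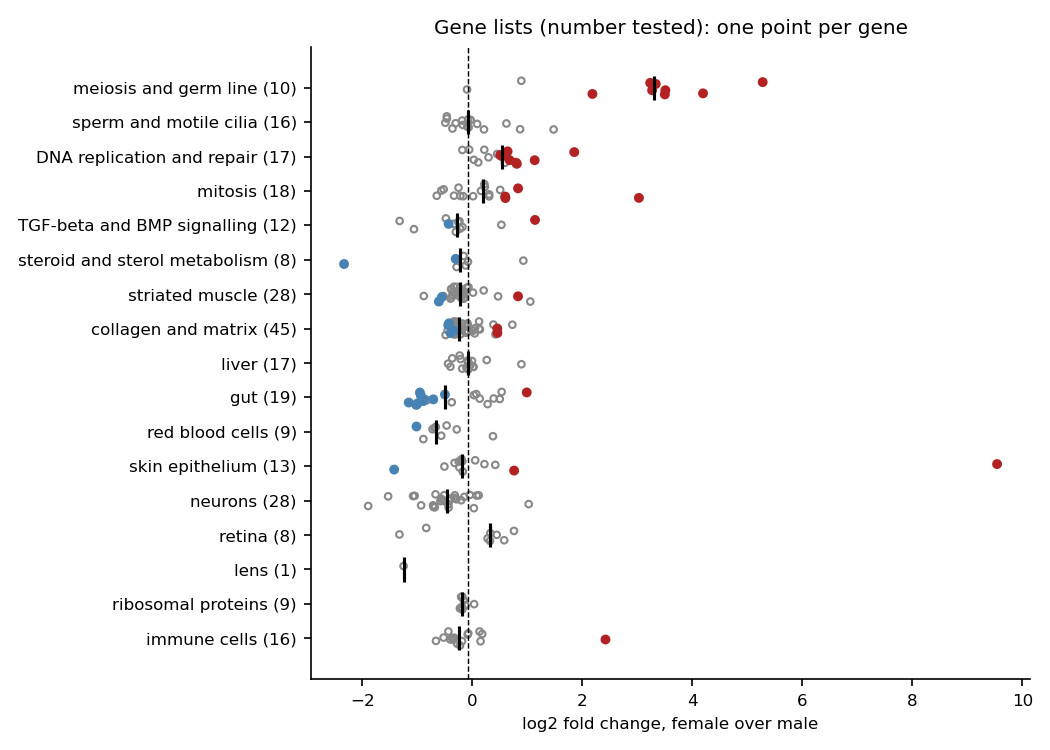
Log2 fold change of females over males for the tested genes of 17 lists, 1 point per gene, with the number tested in brackets. Red and blue points were called higher in females and in males, open points were not called, black bars are the list medians and the dashed line is the median of all tested genes (-0.08). Most meiosis and germ line genes lie far to the right. The median of the gut genes lies to the left, while 8 of the 19 gut genes lean towards females, 1 of them called.

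The direction in the adult gonads, 1 library each and so without a test, is given beside each size class. Of genes at least 8-fold higher in females 86.7% had a higher CPM in the ovary, of female-higher shifts under 1.5-fold 64.4%, of male-higher shifts under 1.5-fold 29.2% and of all tested genes 39.5%. At 0 dph, DESeq2 called 3.31% of 20503 genes, 2.11% higher in females and 1.2% in males. The 14 abundant female genes were all called at 0 dph, where female replicate 1 held 3976 to 74159 counts of each and female replicate 2 held 15 to 846, against 0 to 66 in the 3 male libraries. For krt5 (Nfu_g_1_000844) the 0 dph counts were 7320 and 77 counts in the female and 1, 0 and 15 in the male libraries. The pair of female hatchling libraries thus lay far apart in these genes, with the lower one still above the male libraries for krt5.

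A sex-by-age term over the 11 trunk libraries was called by DESeq2 in 8.73% of 20974 genes. sybu (Nfu_g_1_016781) had 717 and 458 counts in the female and 319, 162 and 174 in the male libraries at 0 dph. Its sex difference grew by 2.31 ± 0.44 on the log2 scale up to 3 dph (SE, with an adjusted p by DESeq2 of 1.79e-05). rec8 (Nfu_g_1_001081) had 221 and 322 counts in the female and 12, 6 and 7 in the male libraries at 0 dph, and its difference was not called as changed (-1.28 ± 0.61, SE, DESeq2 adjusted p 0.198). CENPE (Nfu_g_1_000450), a centromere kinesin, had a smaller difference at 3 dph (0.60 ± 0.14) than at 0 dph (2.74 ± 0.46). The other genes named CENPE leaned towards males at 3 dph and were not called (log2 fold changes -0.57, -0.52 and -0.65).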

How the data were processed

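RNA-seq of trunks of *N. furzeri* larvae at 3 dph was analysed, with trunks at 0 dph and adult gonads as side values. Per the labels and the study's methods, RNA extracted with QIAzol went into TruSeq libraries, reads were filtered with sga and mapped with STAR to the species' genome, and the authors deposited raw counts per gene from summarizeOverlaps, without normalisation. All columns were mapped to a sample (0 were not). The submitters' processing notes name bcl2fastq 1.8.4. Use of strand in counting is not given in the sources used here, so reads of overlapping and antisense genes, and of gene families, may be shared. PCR copies are not marked, so intervals and floors cover counting error only.

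Sexes were compared with DESeq2 1.42.0 in R 4.3.3 on the raw counts of the 6 libraries (Wald test with size factors from medians of ratios, genes without any count left out, independent filtering at 0.05, Benjamini-Hochberg adjusted p under 0.05). Values left without an adjusted p stayed so. Alternatives were edgeR 4.0.16, other scaling and filters, a fit over 11 trunk libraries, the replicate number as a block and each library left out. The script was tested on simulated data. Gene symbols came from a table in the study's supplement that pairs 2671 of 26740 identifiers, 773 of them chosen there on the 10 dpf sex difference, so lists and named genes cover a part of the genome. No identifier (0) matched the RefSeq table at hand, so no positions or sequences are given.

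Named genes were, with a symbol, all on/off genes, the 8 largest of at least 4-fold per direction, the called genes among the 200 most abundant, the 4 small shifts with the smallest adjusted p per direction, up to 4 called genes per list and 8 genes by role, and without a symbol the highest per direction and class. tdrd6, mei4, rad21l1, hbbe2, the second krt5 and Nfu_g_1_026575 were added after their values were seen. Members and lists were chosen with earlier results of these data known.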

Additional observations from a re-analysis of the deposited data

Results flagged for a closer look

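Among the named genes, 12 were flagged because DESeq2 called the sex-by-age term over 11 trunk libraries (positive values: female-higher or more so at 3 dph). The term was called in 8.73% of all genes tested for it, and in 1182 of the 4048 that were called at 3 dph. Most named genes were chosen by their 3 dph difference, and the same libraries enter the term. The choice thus favours such a change, and the 12 are given as a description only. The sex difference moved towards females in sybu by 2.31 ± 0.44 (SE, with an adjusted p by DESeq2 of 1.79e-05, edgeR 0.0176), in picalm by 0.78 ± 0.15 (SE, with an adjusted p by DESeq2 of 1.20e-05, edgeR 0.0318), in vars by 1.52 ± 0.29 (SE, with an adjusted p by DESeq2 of 1.32e-05, edgeR 0.0156), in clptm1 by 1.14 ± 0.35 (SE, with an adjusted p by DESeq2 of 0.0200, edgeR 0.0773), in pabpc1l by 2.13 ± 0.73 (SE, with an adjusted p by DESeq2 of 0.0437, edgeR 0.167), in taf4b by 2.51 ± 0.78 (SE, with an adjusted p by DESeq2 of 0.0198, edgeR 0.116) and in CCNJ by 1.78 ± 0.56 (SE, with an adjusted p by DESeq2 of 0.0245, edgeR 0.0996). It moved towards males in CENPE by -2.12 ± 0.46 (SE, with an adjusted p by DESeq2 of 2.00e-04, edgeR 0.0243), in dscc1 by -0.89 ± 0.30 (SE, with an adjusted p by DESeq2 of 0.0331, edgeR 0.0841), in COL5A2 by -0.62 ± 0.21 (SE, with an adjusted p by DESeq2 of 0.0362, edgeR 0.114), in vmhc by -1.44 ± 0.32 (SE, with an adjusted p by DESeq2 of 4.14e-04, edgeR 0.0239) and in si:dkey-11o1.3 by -3.04 ± 0.77 (SE, with an adjusted p by DESeq2 of 0.00254, edgeR 0.0554). picalm, vars and clptm1 are small female-higher shifts at 3 dph and had log2 fold changes of -0.27, -0.91 and -0.57 at 0 dph. The 0 dph difference of clptm1 was not called (SE 0.34, DESeq2 adjusted p 0.539). In CENPE (Nfu_g_1_000450) and dscc1 the difference stayed female-higher and became smaller. The 0 dph group had 2 female libraries, which lay far apart in the abundant female-higher genes.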

How the results depend on the processing

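The excess of female-higher genes held in all 13 alternatives, with 66.8% to 82.5% of calls on the female side (72.5% as reported). Leaving out 1 library gave 2707 to 4194 calls, 2233 to 2800 female-higher and 474 to 1394 male-higher, each lowest without female replicate 1 and highest without male replicate 2. Same-numbered libraries of the sexes showed no common direction of deviation (correlations -0.19, 0.19 and 0.00), so the numbers were not taken as pairs. Between differently numbered libraries these correlations ran from -0.35 to 0.33. With the replicate block 2593 genes were called, 542 of them male-higher, with 165 female-higher and 98 male-higher small shifts. Male-higher genes numbered 709 with edgeR, 672 with library totals and 569 in 1 fit over 11 trunk libraries. That fit also gave 392 and 136 small shifts and 27 list members called (48 of 297 as reported). The 297 include genes with too few counts to be tested. For comparison, 18.9% of all tested genes were called as reported. Library totals gave 209 male-higher shifts, and a tighter limit on the fold gave 11 and 13. Without 1 library the small shifts were 253 to 555 and 92 to 532, and the list members called 33 to 53. Of the 200 abundant genes, male-higher calls were 1 with edgeR, 5 with TMM factors, 4 in the fit over 11 libraries and 4 to 15 without 1 library (female-higher 17 to 19). With the 100 most abundant there were 7 and 4 calls, and with 500, 62 and 32. On/off genes in females numbered 15 with at most 1 count in males and 60 to 82 without 1 library, and those in males 1 to 4. Leaving out a library could only keep or raise these on/off counts, so it is no check on them. The sex-by-age term was called in 1830 genes by DESeq2 and 887 by edgeR. The cause of these shifts was not tested. Of the 71 named and list genes called, 46 were called without any 1 library, and 25 were lost at least once. No named gene that was called changed sign. Of those not called, cyp11c1 Nfu_g_1_001331 (log2 fold change -0.16) stood at 0.05 and 0.04 without female replicate 1 and male replicate 1, cyp11c1 Nfu_g_1_001333 (-0.29) at 0.09 without male replicate 2, and spo11 (0.26) at -0.31 without male replicate 1. Depth limits low genes: up to a mean of 15.1 counts the smallest called log2 change was 1.39.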
